A study of Homo sapiens with 18 samples.

Results

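The response of NR4A2-depleted monocytic cells to lipopolysaccharide (LPS), a component of the outer membrane of Gram-negative bacteria, was measured by RNA-seq. All 6 libraries of the shNR4A2 line were used, of 18 libraries in the study: 3 unstimulated (shNR4A2 control) and 3 stimulated (shNR4A2 LPS). They were chosen by their sample descriptions and not by any measured value. THP-1 is a human monocytic leukaemia line, and the shNR4A2 cells stably carried a lentiviral short hairpin RNA against NR4A2, which the control and LPS groups share. LPS was given at 2.5 μg/ml for 2 h in buffered medium with serum, after a rest without LPS that both groups had. The remaining libraries, used for comparison, were the same pair of conditions in cells with a non-target hairpin (shNT) and in cells with a hairpin against NR4A3 (shNR4A3), 6 libraries each. The labels name only the target of each hairpin, and 1 line was used per target, so that loss of the target and any other property of a line cannot be told apart. Total counts on genes were 23929138, 19004435 and 22046231 in the shNR4A2 control libraries and 17361839, 19623617 and 20035677 in the LPS libraries. Between 26377 and 28930 genes had a count in 5 of these libraries, whereas control replicate 2 had 23968. As bulk RNA was sequenced, fewer cells that express a gene and less of its RNA per cell cannot be told apart.

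LPS is sensed on monocytes by Toll-like receptor 4 with MD-2 and CD14. Adaptor proteins then lead to NF-κB, which the IκB proteins hold in the cytoplasm, to the MAP kinases with the AP-1 factors, and to IRF3 with type I interferon. Within hours monocytes transcribe chemokines, interleukins and TNF, together with the inhibitors that close the response. NR4A1, NR4A2 and NR4A3 are orphan nuclear receptors that are themselves immediate early genes.

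The targeted transcript, NR4A2 (chromosome 2, 156324432 to 156342348, minus strand, GRCh38), had 1.82, 1.63 and 2.40 TPM (reads per transcript length, scaled to the same library total) in the shNR4A2 control libraries and 20.5, 28.3 and 14.8 with LPS. The groups did not overlap. By edgeR's quasi-likelihood test, with Benjamini-Hochberg adjustment as throughout, NR4A2 still rose 12.9-fold in the line that carries its hairpin (log2 fold change 3.69, standard error 0.238, adjusted p = 2.50e-07). In shNT cells the same transcript went from 3.69 ± 0.743 to 62.7 ± 11.7 TPM (SD, n = 3 each), and each shNR4A2 library lay below each shNT library of the same condition. NR4A3, the family member with the lowest unstimulated level, had 0.707, 0.694 and 1.41 TPM in control and 33.0, 32.8 and 36.1 with LPS (log2 fold change 5.44, standard error 0.231, adjusted p = 5.49e-09). NR4A1 had 6.60, 8.10 and 5.89 TPM in control and 15.2, 17.2 and 12.98 with LPS (log2 fold change 1.40, standard error 0.161, adjusted p = 5.13e-05). All NR4A receptors therefore rose in these cells, and with LPS the order by mean TPM was NR4A3 above NR4A2 above NR4A1, with NR4A2 and NR4A1 overlapping in their libraries. The difference in response between shNR4A2 and shNT cells on the log2 scale was -0.60 for NR4A2 (standard error 0.307, unadjusted p = 0.0682), -0.52 for NR4A3 and -0.07 for NR4A1, none of which passed by edgeR's interaction test (adjusted p = 0.9999 for each).

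**Figure D1:**
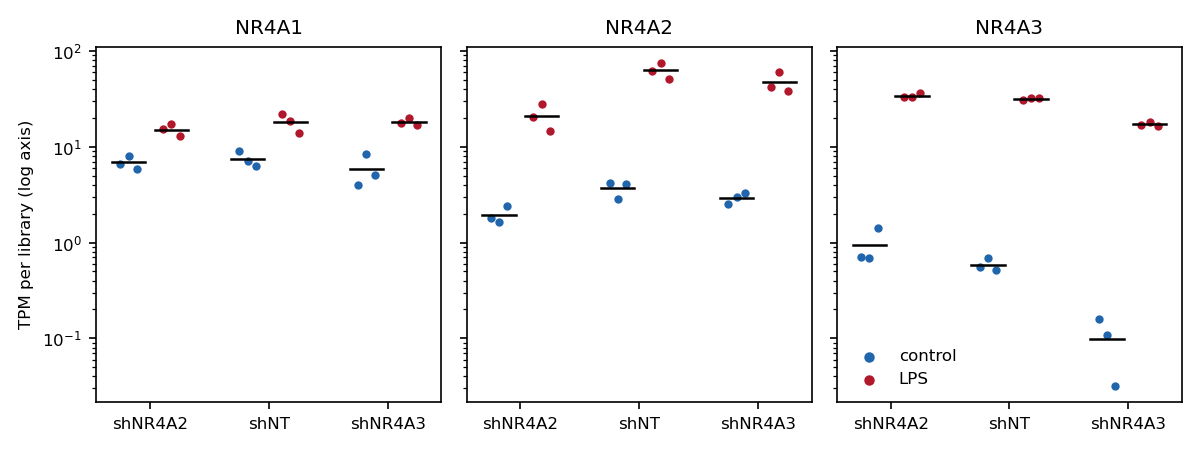
TPM of NR4A1, NR4A2 and NR4A3 in each of the 18 libraries, on a log axis, by line and condition, with 1 point per library (control blue, LPS red) and a bar at the mean of 3. In shNR4A2 cells NR4A2 goes from a mean of 1.95 to 21.2 TPM with LPS, below the 62.7 TPM of shNT cells with LPS.

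LPS changed a large part of the transcriptome of shNR4A2 cells. Of 15772 genes past the filter on low counts, 3050 (19.3%) had an adjusted p under 0.05 by edgeR, 1455 of them higher (9.23%) and 1595 lower (10.1%). Blocked on replicate number, the same test passed 4751 genes, among them all 3050 in their direction. The counts that follow are without the block unless stated. With at least a 2-fold change as well, 1382 genes were called (8.76%), 830 higher (5.26%) and 552 lower (3.5%). In the following, a gene that "passed" had an adjusted p under 0.05 and a gene that was "called" also changed at least 2-fold. The called genes were more often higher than lower, and the rises were larger. The median log2 fold change of the called genes was 2.24 for those higher and -1.33 for those lower, against -0.02 over all genes tested. At 4-fold or more, 461 were higher and 66 lower, and at 16-fold or more 190 were higher by the fitted value, which for genes without a read in a group is no bound. The genes called higher summed to 16000, 15020 and 15770 TPM in the control libraries and to 103100, 81330 and 89790 with LPS. The log2 ratio of mean TPM sat 0.27 below edgeR's log2 fold change at the median, so that TPM understates rises, and directions are edgeR's. In 1354 of the 1382 called genes the control and LPS libraries did not overlap in TPM, which was so for 46% of all genes tested.

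**Figure D2:**
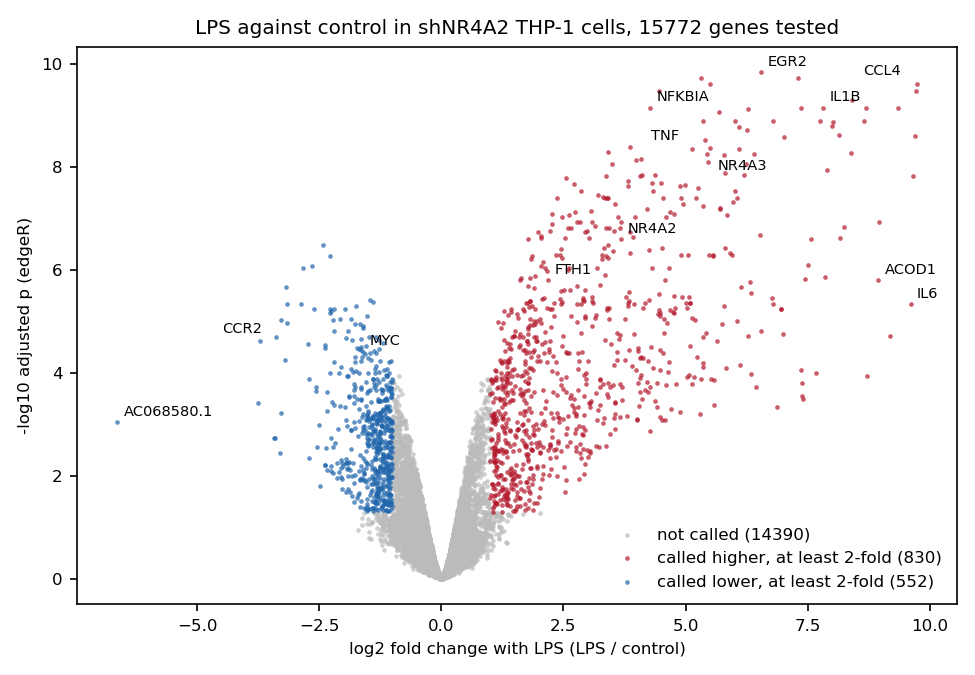
Log2 fold change with LPS in shNR4A2 cells (x axis) against -log10 of edgeR's adjusted p (y axis), 1 point per gene tested (15772 genes), with genes called at least 2-fold higher in red (830) and lower in blue (552). The higher genes reach a log2 fold change of 9.74 (CCL4), whereas the lowest point, AC068580.1 at -6.63, has no read with LPS, so that its fitted value is no bound.

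NF-κB subunits and IκB proteins rose almost as a whole. Of 11 members tested, 10 passed and were called, all higher (90.9%, against 9.23% of all genes tested), with a median log2 fold change of 3.198. NFKBIA, which encodes the IκBα inhibitor that NF-κB itself induces, had 124, 119 and 115 TPM in control and 2105, 1938 and 1721 with LPS (log2 fold change 4.28, standard error 0.141, adjusted p = 6.99e-10). NFKBIZ, an atypical IκB that acts in the nucleus, had 3.86, 4.62 and 4.04 TPM in control and 591, 618 and 434 with LPS (log2 fold change 7.30, adjusted p = 1.86e-10). The precursor subunits NFKB1 and NFKB2 changed by 3.52 and 4.55 on the log2 scale, RELB by 3.62 and REL by 3.198. RELA, the p65 subunit, was the member that did not pass, at 88.6, 88.3 and 80.8 TPM in control and 89.2, 86.9 and 73.0 with LPS (log2 fold change 0.22, adjusted p = 0.246, and 0.0968 with the replicate block).

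Letters of binding motifs were looked up upstream of genes that rose, in RefSeq's promoter windows (GRCh38.p14, 250 bases before to 50 after a gene's start). The κB consensus, on either strand, was present in 10.8% of all 27305 windows. It is shown in capitals, 5′ to 3′ on the gene's strand, for 6 of the genes described here. CXCL1, CXCL2 and CXCL3 are neighbours with the same letters in capitals, which join 2 overlapping matches, and their flanks differ in a few bases.
NFKBIA (chr14:35404812-35404839, minus strand): gactggcttGGAAATTCCCcgagcctga
CXCL1 (chr4:73869305-73869333, plus strand): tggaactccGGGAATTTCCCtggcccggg
CXCL2 (chr4:74099254-74099282, minus strand): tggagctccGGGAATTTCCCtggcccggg
CXCL3 (chr4:74038749-74038777, minus strand): tggagctccGGGAATTTCCCtggcccggc
CCL20 (chr2:227813754-227813781, plus strand): gatcaatggGGAAAACCCCatgtggcaa
IL6 (chr7:22727118-22727145, plus strand): atcaaatgtGGGATTTTCCcatgagtct
The first matched base lay 81 bases before the start in NFKBIA, 79 in CXCL1, CXCL3 and CCL20, 78 in CXCL2 and 73 in IL6. Other genes that rose as strongly had no match in their window, among them CXCL8, IL1B, TNF, CCL3, IL12B, ICAM1 and SOCS3, while TNFSF14, which fell, had 2. A match describes the letters only. Shares of called genes with a motif were not compared, since a window was matched for 62.2% of the genes called higher and 68.6% of the genes tested.

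Chemokines included the largest fitted change of all genes tested. IL6 and ACOD1, with 0 and 1 counts over the control group, could have changed more. Of 10 CXC chemokines tested 9 passed, all higher (90%, against 9.23% of all genes tested), with a median log2 fold change of 7.39 over those tested. Of 11 CC chemokines 8 passed, all higher (72.7%), with a median of 6.11. CCL4 (chromosome 17, 36103590 to 36105621), which encodes the monocyte attractant MIP-1β, had 1.67, 2.06 and 1.54 TPM in control and 1487, 972 and 1242 with LPS, the top of the 15772 genes by fitted value (log2 fold change 9.74, standard error 0.268, adjusted p = 2.42e-10). Its near-identical copy CCL4L2 had 9.72, and CCL3 and its copy CCL3L1 had 7.36 and 6.27. Reads could be split between each such pair, which makes the single values uncertain. CXCL8, the neutrophil attractant interleukin-8, was the most abundant chemokine, at 29.98, 28.4 and 18.2 TPM in control and 7006, 5021 and 4187 with LPS (log2 fold change 7.999, standard error 0.295, adjusted p = 1.58e-09). Among other ligands of the neutrophil receptor CXCR2, CXCL1 changed by 8.01, CXCL2 by 8.40 and CXCL3 by 9.69, and not every such ligand rose as much. CCL20, the ligand of CCR6, had 6.19, 5.25 and 4.17 TPM in control and 1651, 870 and 1137 with LPS (log2 fold change 8.15, adjusted p = 2.43e-09). CXCL10, a ligand of CXCR3, a chemokine receptor found on T cells, was uneven between replicates. It had 0.785, 2.11 and 1.26 TPM in control and 246, 206 and 569 with LPS, with LPS replicate 3 well above the others (log2 fold change 8.25, standard error 0.502, adjusted p = 1.49e-07). CCL5 differed from these in its start, at 548, 545 and 539 TPM in control and 929, 775 and 902 with LPS, a rise of 1.93-fold that passed (log2 fold change 0.95, standard error 0.130, adjusted p = 0.000212) but was not called. The 1 CXC chemokine tested that did not pass was CXCL16, a membrane-bound ligand, with a log2 fold change of 0.33.

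Interleukins and other cytokines rose in 13 of 16 members tested (81.25%, against 9.23% of all genes tested), and all 13 were called. The median log2 fold change of the 16 was 5.21. IL1B, the inflammasome-processed pyrogen interleukin-1β, had the highest mean TPM with LPS of the called genes, although FTH1 was above it in LPS replicate 3. IL1B was at 35.6, 28.0 and 33.5 TPM in control and 7943, 5137 and 4963 with LPS (log2 fold change 7.82, standard error 0.257, adjusted p = 6.99e-10). IL1A, its neighbour on chromosome 2, had 1.23, 1.17 and 1.24 TPM in control and 563, 358 and 307 with LPS (log2 fold change 8.66, adjusted p = 1.27e-09). Both were highest in LPS replicate 1, and the summed TPM of the whole list was 10010, 6468 and 6970 in the 3 LPS libraries against 113, 116 and 115 in control. An AP-1 site (TGANTCA, on either strand, in 7.76% of windows) lay 12 bases before the start of IL1A on chromosome 2.
IL1A (chr2:112784494-112784520, minus strand): aaaggcgaagaagacTGACTCAggctt
IL6 had no read in the 3 control libraries and 248 over the 3 LPS libraries, at 9.38, 5.46 and 7.52 TPM. Against 3 counts over the control group it was at least 94.2-fold higher (adjusted p = 4.61e-06). The subunits of interleukin-23, IL23A and the shared IL12B, had log2 fold changes of 7.02 and 8.38, and EBI3, a subunit of interleukin-27, one of 6.31 with LPS values of 91.8, 58.6 and 203 TPM. IFNB1, which encodes interferon-β, had 1 count over the control group and 51 with LPS, a ratio of 58.1 with an exact 95% counting interval of 9.97 to 2340. The interleukin-1 receptor antagonist IL1RN (log2 fold change 0.44, adjusted p = 0.127), IL18 and OSM did not pass. Without LPS replicate 2, IL1RN had an adjusted p of 0.00511. IL10, the main cytokine that restrains monocytes, was under the filter, with 10 counts over the control libraries and 41 over the LPS libraries.

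The TNF superfamily was divided. Of 13 ligands tested 7 passed higher (53.85%, against 9.23% of all genes tested) and 3 lower (23.1%, against 10.1%). The median log2 fold change was 0.68. TNF had 55.5, 96.8 and 65.4 TPM in control and 2223, 2130 and 2026 with LPS, with stimulated libraries close to each other (log2 fold change 5.14, standard error 0.212, adjusted p = 4.40e-09). LTA and LTB, which encode the lymphotoxins, rose by 2.48 and 1.95 on the log2 scale, and CD70, a costimulatory ligand, by 1.17. TNFSF14 (LIGHT) fell, from 40.5, 28.4 and 38.2 TPM to 5.07, 5.85 and 5.58 (log2 fold change -2.43, standard error 0.161, adjusted p = 3.32e-07). TNFSF10 (TRAIL) and TNFSF13B (BAFF) also fell, with -1.06 and -1.04.

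The other transcripts with the largest changes were not all cytokines. TNFAIP6, a secreted hyaluronan-binding protein, had 0.975, 2.54 and 0.313 TPM in control and 952, 513 and 985 with LPS (log2 fold change 9.66, standard error 0.459, adjusted p = 1.52e-08). SHROOM3, which shapes the actin cytoskeleton, had 0.164, 0.0435 and 0.1 TPM in control and 41.3, 31.7 and 37.8 with LPS (log2 fold change 8.70, adjusted p = 6.99e-10). ACOD1, which makes itaconate from a Krebs cycle intermediate, had 1 count over the control group and 519 with LPS, a ratio of 591 with an exact 95% counting interval of 106 to 23410. FRMD7 and the noncoding AC126178.1 had no read in the control group, and were at least 70.7-fold and 50.9-fold higher by the same floor of 3 counts over the group. ENSG00000254281, which has no symbol in GENCODE 29, had 1 count against 526, a ratio of 599 with an interval of 107 to 23720. Among abundant genes, FTH1, the ferritin heavy chain that stores iron, had 1628, 1234 and 1567 TPM in control and 6086, 4536 and 5983 with LPS (log2 fold change 2.19, adjusted p = 1.59e-06). PLEK (pleckstrin), a protein kinase C substrate, changed by 3.49, and BTG2, an antiproliferative early gene, went from 61.8, 72.0 and 68.2 TPM to 2282, 2282 and 2152 (log2 fold change 5.32, adjusted p = 1.86e-10).

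**Figure D3:**
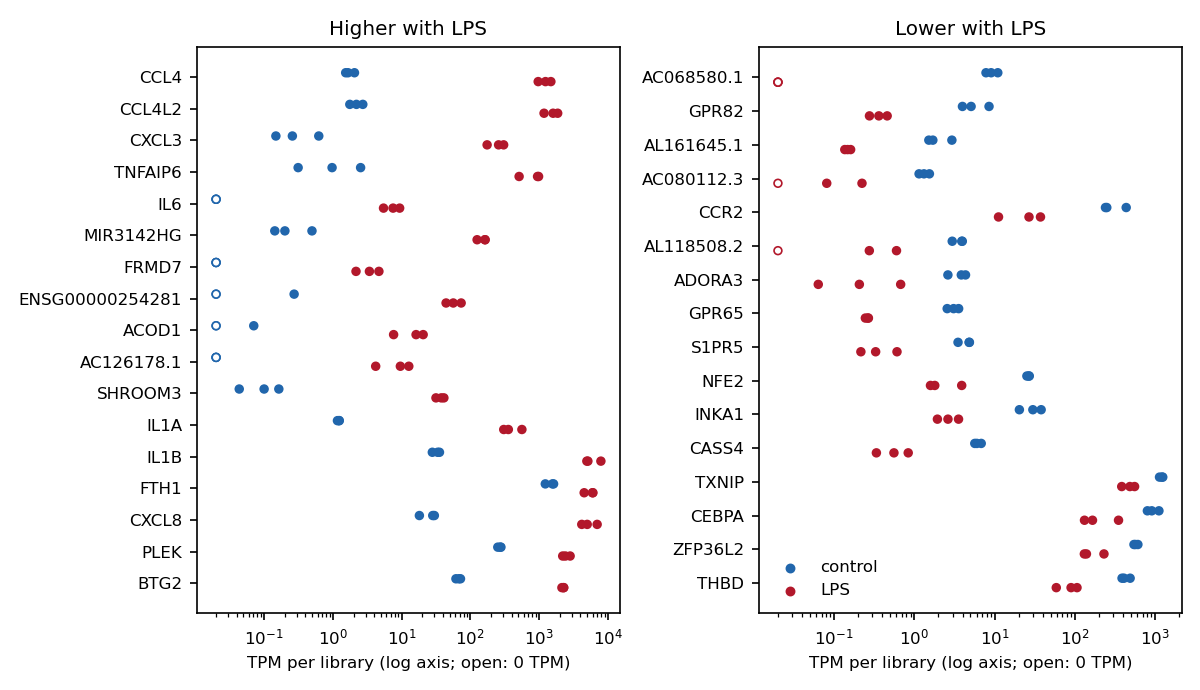
TPM in each shNR4A2 library, on a log axis, of the 12 genes with the largest changes and the 5 most abundant called genes in each direction (left higher with LPS, right lower, CCR2 being in both sets), with 1 point per library, control in blue and LPS in red, and open points for 0 TPM, drawn at the left edge. The 12 in each direction were chosen among genes whose groups did not overlap. IL1B sits between 28.0 and 35.6 TPM in control and between 4963 and 7943 with LPS.

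Immediate early transcription factors mostly rose, but not in every family. Of 26 tested 18 passed higher (69.2%, against 9.23% of all genes tested) and 4 lower (15.4%, against 10.1%). The median log2 fold change was 1.14. EGR2, a zinc finger factor, had 1.83, 1.71 and 1.70 TPM in control and 136, 136 and 136 with LPS, the smallest adjusted p of all genes tested (log2 fold change 6.54, standard error 0.154, adjusted p = 1.45e-10). EGR1 had 27.7, 23.6 and 15.99 TPM in control and 193, 220 and 90.2 with LPS, lowest in LPS replicate 3 (log2 fold change 3.16, adjusted p = 7.37e-06), and EGR3 one of 5.05. Serum response factor binds the CArG box, which was in 1.29% of promoter windows and lay 105 and 83 bases before the start of EGR1.
EGR1 (chr5:138465359-138465420, plus strand): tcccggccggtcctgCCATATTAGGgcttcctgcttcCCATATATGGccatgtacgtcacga
The AP-1 genes JUN and JUNB rose by 2.73 and 2.86 on the log2 scale, from means of 136 and 84.1 TPM. FOS had 56.4, 54.0 and 51.9 TPM in control and 45.8, 35.1 and 44.9 with LPS and did not pass (log2 fold change -0.09, adjusted p = 0.726). ATF3, a repressor of inflammatory genes, had 14.4, 13.6 and 11.2 TPM in control and 74.9, 68.5 and 42.8 with LPS (log2 fold change 2.51, adjusted p = 2.44e-06). The letters bound by a single NR4A receptor (the NBRE, AAAGGTCA, on either strand, in 1.21% of windows) lay 202 bases before its start. PLEK, which also rose, had a match in its window too, whereas EGR2, IL1B, NR4A1 and NR4A3 rose and had none. Here too a match describes the letters only.
ATF3 (chr1:212565190-212565227, plus strand): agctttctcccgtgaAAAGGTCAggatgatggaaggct
MYC, a growth regulator, fell, with 254, 265 and 272 TPM in control and 90.4, 56.0 and 68.2 with LPS (log2 fold change -1.60, standard error 0.178, adjusted p = 3.85e-05). HES1, a Notch target, also fell, by 1.38 on the log2 scale (adjusted p = 0.00712).

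Most feedback inhibitors rose. Of 24 tested 15 passed higher (62.5%, against 9.23% of all genes tested) and 2 lower (8.33%, against 10.1%). The median log2 fold change was 0.75, and with the replicate block 5 were lower. TNFAIP3, the deubiquitinase A20 that ends NF-κB signalling, had 37.2, 22.8 and 22.9 TPM in control and 1400, 1459 and 942 with LPS (log2 fold change 5.78, adjusted p = 5.79e-09). ZC3H12A, the RNase regnase-1 that degrades cytokine mRNA, changed by 5.36 and SOCS3, a JAK-STAT inhibitor, by 5.50. DUSP1, a phosphatase of p38 and JNK, had 6.55, 6.51 and 5.79 TPM in control and 88.8, 73.7 and 60.4 with LPS (log2 fold change 3.83, adjusted p = 2.37e-08). The full cAMP response element (TGACGTCA, in 1.98% of windows) lay 125 bases before its start.
DUSP1 (chr5:172771298-172771335, minus strand): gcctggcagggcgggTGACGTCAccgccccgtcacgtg
CISH, a cytokine-induced STAT5 inhibitor, fell from 9.60, 7.57 and 7.498 TPM to 1.26, 1.70 and 1.30 (log2 fold change -2.27, adjusted p = 6.41e-06), and ZFP36L2, an mRNA decay factor, fell by 1.53 from a mean of 577 TPM. IRAK3, a kinase-like inhibitor of Toll-like receptor signalling, did not pass (log2 fold change 0.20, adjusted p = 0.26).

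Among the receptors and adaptors upstream more passed higher than lower, and the share lower was near that of all genes tested. Of 21 members of the LPS receptor and signalling chain tested, 5 passed higher (23.8%, against 9.23% of all genes tested) and 2 lower (9.52%, against 10.1%), or 7 and 3 with the replicate block, with a median log2 fold change of 0.06. IRAK2, a kinase that sustains signalling downstream of MYD88, stood apart at 9.76, 7.99 and 6.71 TPM in control and 231, 137 and 240 with LPS (log2 fold change 4.91, adjusted p = 4.03e-08). TICAM1 (TRIF), the adaptor of the interferon branch, rose by 2.60, TRAF3 by 1.85 and TAB2 by 1.43. The adaptor MYD88 and the ubiquitin ligase TRAF6 did not pass, with log2 fold changes of 0.19 and -0.27. TLR4, the LPS receptor, had 26.1, 15.5 and 17.4 TPM in control and 23.4, 24.3 and 16.3 with LPS, and the groups overlapped (log2 fold change 0.38, adjusted p = 0.228, and 0.0457 with the replicate block). CD14 went from 66.7, 39.9 and 44.0 TPM to 45.5, 26.5 and 23.8 (log2 fold change -0.38, adjusted p = 0.359, and 0.0234 with the replicate block). Leaving out control replicate 1 gave TLR4 an adjusted p of 0.0341, and leaving out LPS replicate 1 gave CD14 one of 0.0404. Of 8 Toll-like receptors tested 2 passed higher and 1 lower (25% and 12.5%, or 3 and 2 members with the replicate block), with a median log2 fold change of -0.06. The count passing lower was 0 without LPS replicate 3 or control replicate 1, and 2 without LPS replicate 1 or without the filter. TLR7, a sensor of single-stranded RNA, had 0.916, 0.586 and 1.01 TPM in control and 14.5, 15.9 and 24.0 with LPS (log2 fold change 4.69, adjusted p = 7.60e-08), and TLR2, which senses bacterial lipopeptides, rose by 1.64 from a mean of 95.0 TPM.

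Adhesion molecules and chemokine receptors moved in both directions. Of 19 tested 5 passed higher and 5 lower (8 lower without LPS replicate 2). Each 5 made up 26.3%, against 9.23% higher and 10.1% lower over all genes tested. CCR2, the receptor of CCL2 that carries monocytes out of the bone marrow, had 438, 251 and 242 TPM in control and 26.9, 37.4 and 11.2 with LPS (log2 fold change -3.38, standard error 0.350, adjusted p = 2.04e-05), which put it both among the 12 largest falls and among the 5 most abundant genes called lower. CCR1 fell from 173, 137 and 93.7 TPM to 22.6, 17.97 and 14.6 (log2 fold change -2.60, adjusted p = 5.62e-06), CX3CR1, the fractalkine receptor, by 1.64, and CXCR2 by 1.53 on the log2 scale. The adhesion molecule ICAM1, a ligand of leukocyte integrins, rose from 9.01, 7.92 and 6.04 TPM to 490, 347 and 460 (log2 fold change 6.09, adjusted p = 1.70e-09), and CCR7, which guides cells to lymph nodes, by 2.65. Single G protein-coupled receptors outside that list also fell, while others were called higher, and these receptors were not counted as a list. GPR82, an orphan receptor, had 8.55, 3.98 and 5.11 TPM in control and 0.362, 0.277 and 0.459 with LPS (log2 fold change -3.71, adjusted p = 2.38e-05). GPR65, a proton sensor, changed by -3.28, the adenosine receptor ADORA3 by -3.28 and the sphingosine 1-phosphate receptor S1PR5 by -3.19. TNFRSF1A, the main receptor of TNF, fell by 1.02 from a mean of 119 TPM, 1 of 4 of 23 cytokine receptors tested that passed lower (17.4%, against 10.1% of all genes tested), while 5 were higher (21.7%, against 9.23%), and with the replicate block 7 were lower and 9 higher. AC068580.1, a noncoding transcript with 42 counts in the control group and none with LPS, was at least 12.3-fold lower.

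Transcription factors of blood cell development were among the genes that fell. CEBPA, which drives granulocyte and monocyte differentiation, had 912, 1120 and 804 TPM in control and 166, 351 and 132 with LPS (log2 fold change -1.89, standard error 0.267, adjusted p = 0.000277). MYB, a factor of immature blood cells, fell from 261, 201 and 265 TPM to 52.7, 84.7 and 54.5 (log2 fold change -1.67, adjusted p = 1.11e-05), and NFE2 from 27.1, 26.8 and 25.3 to 1.80, 3.90 and 1.59 (log2 fold change -3.19, adjusted p = 2.18e-06). In CEBPA, MYB and NFE2 alike, LPS replicate 2 had the highest of the LPS values. TXNIP, an inhibitor of thioredoxin and glucose uptake, fell by 1.06 on the log2 scale and was the most abundant gene called lower, at 1250, 1224 and 1139 TPM in control and 487, 385 and 557 with LPS. THBD (thrombomodulin), which turns thrombin to anticoagulant use, fell from 490, 411 and 389 TPM to 107, 90.0 and 58.9 (log2 fold change -2.07, adjusted p = 9.03e-06), while F3, the tissue factor that starts coagulation, rose by 1.12 and the protease inhibitor SERPINE2 by 5.56. Of 11 genes of coagulation and plasminogen activation tested 6 passed higher (54.55%, against 9.23% of all genes tested) and 2 lower (18.2%, against 10.1%).

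Part of the interferon-stimulated genes rose at 2 h. Of 37 tested 12 passed, all higher (32.4%, against 9.23% of all genes tested). The median log2 fold change was 0.36, and 18 passed with the replicate block. GBP2, a guanylate-binding protein, was at 5.57, 6.53 and 6.29 TPM in control and 55.0, 43.3 and 62.6 with LPS (log2 fold change 3.41, adjusted p = 4.03e-08). The antiviral genes IFIT2 and IFIT3 rose by 1.74 and 1.24. IFIT1 had 4.90, 9.71 and 10.3 TPM in control and 9.16, 9.20 and 25.5 with LPS, and the groups overlapped (log2 fold change 1.11, adjusted p = 0.0624, and 0.01 with the replicate block). It passed without LPS replicate 1 (adjusted p = 0.0313) or LPS replicate 2 (0.0156). Of 20 genes of MHC class I presentation 5 passed (25%), all higher and all under 2-fold. In the fit of all 18 libraries 10 passed higher. There, with the replicate block, without the filter or without LPS replicate 2, 1 passed lower. Of 12 class II genes 1 passed (8.33%, near the 9.23% of all genes tested that were higher), HLA-DRA, which rose from 26.7, 18.8 and 15.3 TPM to 57.3, 41.7 and 35.1 (log2 fold change 1.41, adjusted p = 0.0013), while 6 passed with the replicate block and 2 without LPS replicate 3.

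Effector pathways were represented by few strong members. Over all genes tested, 9.23% passed higher and 10.1% lower. Of 12 genes of the prostaglandin and leukotriene pathway 3 passed (25%), all higher. PTGS2, the inducible cyclooxygenase, rose by 6.05 on the log2 scale (1.84, 1.19 and 1.66 TPM in control, 125, 77.9 and 56.3 with LPS, adjusted p = 4.02e-08). The prostaglandin E2 receptors PTGER2 and PTGER4 rose by 4.94 and 2.77. Of 24 genes of glucose and itaconate metabolism 6 passed higher (25%) and 1 lower (4.17%, or 3 members with the replicate block). Without LPS replicate 1, control replicate 1 or control replicate 3 the 6 became 3, and the 1 lower became 2 without LPS replicate 2 and 0 without LPS replicate 3 or control replicate 2. SLC2A6, a lysosomal hexose transporter, had 10.6, 10.4 and 10.3 TPM in control and 410, 261 and 468 with LPS (log2 fold change 5.47, adjusted p = 8.15e-09), whereas the main glucose transporter SLC2A1 fell by 0.64 (adjusted p = 0.0118, but 0.0524 without LPS replicate 3 and 0.0606 without control replicate 2). Genes of survival and death fell in 2 of 19 cases (10.5%), or 1 with any library but LPS replicate 2 left out. They rose in 11 (57.9%), on both sides of the process. Among them were the inhibitor of apoptosis BIRC3 (log2 fold change 6.29, adjusted p = 7.32e-10) and the antiapoptotic BCL2A1, which went from 16.8, 12.1 and 14.1 TPM to 567, 309 and 470. The pro-apoptotic BCL2L11 (BIM) and PMAIP1 (NOXA) rose as well, by 1.48 and 1.10 on the log2 scale. Of 9 inflammasome genes tested 2 passed higher and 2 lower (22.2% each). The count higher dropped to between 0 and 1 without LPS replicate 1, LPS replicate 3, control replicate 1 or control replicate 2. The count lower dropped to 1 without LPS replicate 1 or control replicate 3. NLRC4, a sensor of bacterial flagellin, fell from 7.18, 3.47 and 4.99 TPM to 1.51, 0.971 and 0.943 (log2 fold change -1.93, adjusted p = 0.00106). Cholesterol genes (4 higher and 1 lower of 21, or 7 and 3 with the replicate block and 2 lower without control replicate 2), cell cycle genes (5 and 3 of 23) and metallothioneins (1 higher of 6) had median log2 fold changes of 0.04, 0.01 and 0.04, and none of the cholesterol genes or metallothioneins was called. Without LPS replicate 3 or any control library the metallothionein did not pass. The cell cycle genes that passed lower were 1 without any library but LPS replicate 1, and 1 with RLE size factors and all libraries.

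**Figure D4:**
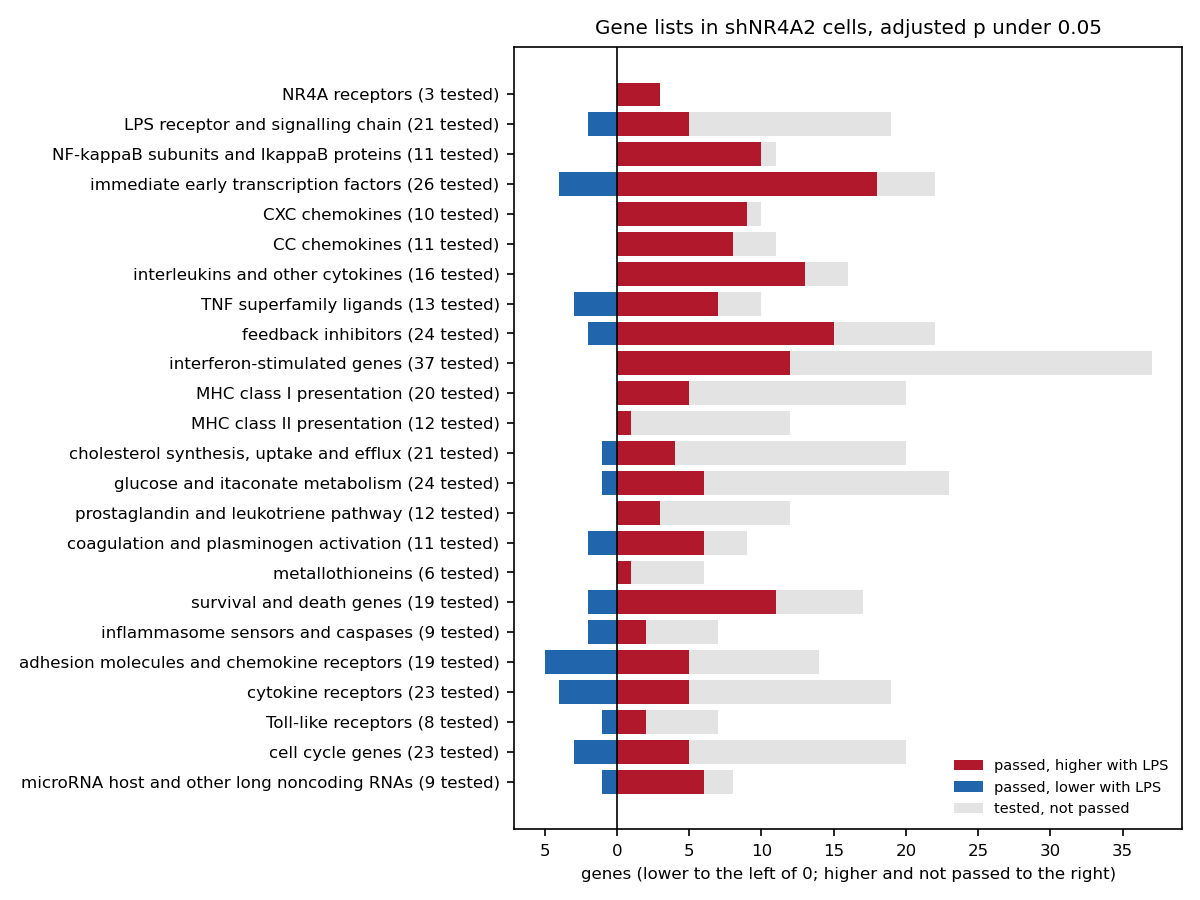
Members of each gene list that passed (adjusted p under 0.05, edgeR) in shNR4A2 cells, with bars to the right for those higher with LPS (red) and those not passed (grey) and to the left for those lower (blue). Over all genes tested 9.23% were higher and 10.1% lower, and the NF-κB (10 of 11), CXC chemokine (9 of 10) and cytokine (13 of 16) lists are mostly red, whereas MHC class II has 1 of 12.

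Host transcripts of 2 microRNAs known from the LPS response of myeloid cells were called higher. MIR3142HG (chromosome 5, 160468268 to 160487426), which holds miR-146a, had 0.201, 0.497 and 0.143 TPM in control and 164, 126 and 163 with LPS (log2 fold change 9.36, standard error 0.301, adjusted p = 6.99e-10). MIR155HG (chromosome 21, 25561909 to 25575168), the host of miR-155, had 17.6, 14.1 and 14.3 TPM in control and 221, 186 and 244 with LPS (log2 fold change 4.10, adjusted p = 6.85e-09). Polyadenylated RNA was sequenced, so the host transcripts were measured and not the mature microRNAs. Their main mature sequences by RefSeq (GRCh38.p14) are given to show what the hosts encode, with the seed (bases 2 to 8) in capitals. The seeds differ.
miR-146a-5p (chr5:160485372-160485393, plus strand): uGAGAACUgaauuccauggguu
miR-155-5p (chr21:25573983-25574006, plus strand): uUAAUGCUaaucgugauagggguu
Of 9 long noncoding RNAs tested 6 passed higher and 1 lower (0 without LPS replicate 3 or control replicate 3). The shares were 66.7% and 11.1%, against 9.23% and 10.1% of all genes tested. MALAT1, a nuclear RNA, had 139, 33.3 and 183 TPM in control and 102, 102 and 154 with LPS and did not pass (log2 fold change 0.30, adjusted p = 0.673, and -0.14 without control replicate 2). Its low value was in control replicate 2, the library with the fewest genes detected, and the part of that library's quality in the result was not tested. For genes annotated as antisense to another gene, the strand setting of the counting was not given in the sources used here, and reads of the partner cannot be told apart.

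The labelled cell type held in all 6 libraries. Of 14 myeloid markers all passed the filter on low counts, and their summed TPM was 9324, 12190 and 9448 in control and 9616, 10660 and 9301 with LPS, with ELANE, the neutrophil elastase of immature myeloid cells, the most abundant. Among them SPI1 (PU.1) rose by 0.76 on the log2 scale and CD33 changed by -0.50 (adjusted p = 0.0112, but 0.0717 without LPS replicate 3 and 0.0534 without control replicate 1), and the other 12 did not pass. With the replicate block 2 were higher and 3 lower, and without control replicate 2, 3 were higher, ELANE with an adjusted p of 0.0311. None of the markers of T and NK cells (3 of 8 tested), B cells (4 of 5), epithelium (1 of 5) or fibroblasts and endothelium (3 of 7) passed. Exceptions came with other settings, in which 1 B cell marker passed higher with the replicate block, and 1 fibroblast and endothelial marker did with DESeq2, 2 without the filter on low counts and 1 in the fit of all 18 libraries. Of that list DCN (decorin), under the filter, had 1 count over the control group and 26 with LPS, and COL3A1, a fibrillar collagen, 1 and 16. CD3D, CD3E, CD3G and MS4A1 had between 1 and 4 counts in any group of 3 libraries. Erythroid markers had no count with LPS, and HBA2 none at all. The most abundant of the T and NK list was NKG7, at a mean of 46.1 TPM in control, and that of the last list PECAM1, which monocytes also express, at 268.6 TPM. Summed TPM of the B cell list was 12.4, 15.9 and 14.8 in control and 7.69, 12.9 and 10.7 with LPS, and that of the epithelial list stayed between 1.69 and 2.42.

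The called genes were shorter than the genes tested. Over protein-coding genes, the median span on GRCh38 was 23.7 kb for the 594 called higher and 14.1 kb for the 432 called lower, against 32.2 kb for the 13109 tested. The 132 genes higher by 16-fold or more had a median span of 16.6 kb and the 48 lower by 4-fold or more one of 6.94 kb. Median merged exon lengths were closer, at 4.21, 4.14 and 5.03 kb. These are descriptions without a test.

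Whether NR4A2 depletion altered the response was addressed with the difference in log2 fold change between lines. Against shNT cells, 0 of 16674 genes passed by edgeR's interaction test, with 365 at an unadjusted p under 0.05 (2.19%) and a smallest adjusted p of 0.429. With DESeq2 2 passed, among them MYC (difference 1.15). By edgeR 8 passed with the replicate block and 8 with shNR4A2 LPS replicate 2 left out, MYC among them each time. MYC had log2 fold changes of -1.60 in shNR4A2, -2.74 in shNT and -2.24 in shNR4A3 cells. Against shNR4A3 cells 0 of 16447 passed, with 396 at an unadjusted p under 0.05 (2.41%), and with DESeq2 1 passed, the noncoding AL663070.1. In each comparison the share was below the 0.05 that evenly spread p-values would give, and the test did not use the replicate pairing. The 0 genes passing therefore do not show that the lines responded alike. The overlap of calls was as follows, the same shNR4A2 libraries entering each. Of the 830 genes called higher in shNR4A2 cells, 619 (74.6%) were also called higher in shNT cells, where they made up 89.2% of 694, and 735 (88.6%) in shNR4A3 cells, 77.7% of 946. Of the 552 called lower, 331 (60.0%) were called lower in shNT cells (67.0% of 494) and 381 (69.0%) in shNR4A3 cells (60.7% of 628). Genes not tested in the other line count as not called in these shares: 749 of the 830 and 537 of the 552 were tested in shNT cells, and 781 and 518 in shNR4A3 cells. None of those tested passed in the opposite direction. Over the genes called higher the median difference in log2 fold change was 0.25 against shNT and -0.14 against shNR4A3 cells, and these genes were selected by their values in shNR4A2 cells. TNF, for example, changed by 5.14, 5.23 and 6.14 on the log2 scale in shNR4A2, shNT and shNR4A3 cells, and IL1B by 7.82, 7.62 and 8.45. Without the filter on low counts 29 genes passed by edgeR in each comparison, at any size of difference. Against shNT cells MYC (difference 1.128, adjusted p = 6.71e-08) and SERPINE2 (1.195, adjusted p = 3.82e-07) were among those higher, and others were lower. TNF (difference -1.01, adjusted p = 2e-05), IL1B (-0.65, adjusted p = 0.0219) and NR4A3 (-2.20, adjusted p = 0.000924) were among those lower against shNR4A3 cells. NR4A3 is the target of the hairpin there, with 0.099 ± 0.0636 TPM in control and 17.3 ± 0.807 with LPS (SD, n = 3 each), below the shNR4A2 libraries in both conditions.

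**Figure D5:**
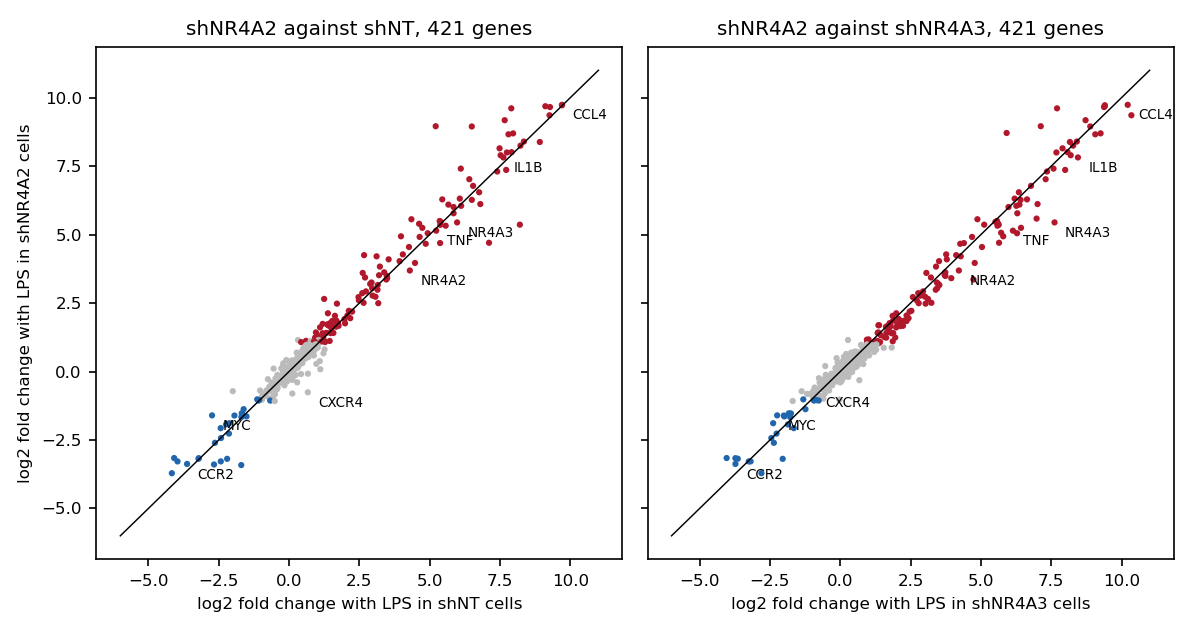
Log2 fold change with LPS in shNR4A2 cells (y axis) against that in shNT cells (left) and shNR4A3 cells (right), 1 point per gene of the lists and leading genes tested in both lines, red for called higher, blue for called lower and grey for neither in shNR4A2 cells, with the line of equal response. The points run from GPR82 at -3.71 to CCL4 at 9.74 in shNR4A2 cells, and NR4A3 lies below it in shNR4A3 cells (5.44 against 7.62), where it is the hairpin's target and starts from a mean of 0.099 TPM.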

How the data were processed

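RNA was measured in 18 libraries from THP-1 cells. Per the labels' processing notes, the authors used Trimmomatic 0.36, STAR 2.5.2b, featureCounts and Subread 1.5.2 with GRCh38, on polyadenylated libraries read from both ends. The strand setting and the annotation release are not given in the sources used here. The table the authors deposited holds raw counts, in whole reads, for 57500 Ensembl genes, each with its merged exon length. Symbols came from GENCODE 29 for 56898 genes. Groups followed the sample labels, and no 2 libraries held identical counts. The study describes 3 independent experiments. The labels do not say whether replicates were separate cultures, so that p-values measure the spread between these libraries.

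TPM was the count over the length, scaled to the same total in every library. Fold changes, standard errors and tests were computed from the counts with edgeR 4.0.16 in R 4.3.3: filterByExpr, TMM, the quasi-likelihood F test and Benjamini-Hochberg adjustment, on the 6 libraries of the line or the 12 of 2 lines for an interaction. For a single gene, an exact 2-sided permutation test of 3 against 3 cannot go below p = 0.1, so none is given. Libraries of 17361839 to 23929138 counts leave genes of a few counts uncertain. Intervals at 1 to 3 counts and the floor of 3 counts cover counting error only.

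Same-numbered control and LPS libraries deviated together (residual correlations 0.301, 0.222 and 0.322 over 15772 genes, against a limit of 0.1). The main test did not use this pairing, so that counts and adjusted p-values are without the block unless stated. Blocked values are given where they change whether a named gene passed or move a count by over 1.5 times. The fits were tested on simulated data with known changes.

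Other settings tried were DESeq2 1.42.0, edgeR with RLE normalization, tests without the filter, the block, 1 fit of all 18 libraries, glmTreat, no limit on the fold change, and each library left out. The genes named are the NR4A receptors, the 12 with the largest change in each direction whose groups did not overlap and whose mean was at least 1 TPM, the 5 most abundant called in each direction, and members of 30 lists. The members and lists were chosen with earlier results of these data known. AL663070.1 was named after its values were seen. Results for a few genes are not reported here. Promoter and microRNA sequences are RefSeq's, and CArG box and κB consensus were searched on both strands.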

Additional observations from a re-analysis of the deposited data

How the results depend on the processing

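The count of genes called at least 2-fold with LPS in shNR4A2 cells was 1382 and lay between 1260 and 1624 with each library left out (800 to 942 higher, 460 to 682 lower), and DESeq2, RLE size factors, no filter, the replicate block and 1 fit of all 18 libraries gave 1383 to 1699. Testing against the 2-fold limit itself with glmTreat called 628 (531 higher, 97 lower), and with no limit on the fold change 3050 passed (1455 higher, 1595 lower). Without a limit on the fold change, the replicate block gave 4751, the fit of all 18 libraries 4601, and libraries left out in turn 2113 to 3375. The difference in response from shNT cells, with 0 genes in edgeR, had 2 with DESeq2, 29 without a filter on low counts, 8 with the replicate block and 0 to 8 with each library left out, 8 only without shNR4A2 LPS replicate 2. In that comparison 17 of 18 pairs of the same number had residual correlations of 0.108 to 0.331 and 1, the shNT libraries numbered 2, had 0.0174, short of the limit of 0.1 set for every pair, so that the block is given there as an alternative only. The difference from shNR4A3 cells had 1 with DESeq2, 29 without a filter and 0 with the block or any library left out. The causes of these shifts were not tested. Of 101 named genes that passed, 99 also did with DESeq2, RLE, no filter, the block, all 18 libraries and each library left out (glmTreat not counted), the exceptions being CD33 and SLC2A1. With each library left out, 3 named genes that had not passed changed sign: FOS (log2 fold change -0.18 to 0.0791), MALAT1 (-0.14 to 0.73) and PECAM1 (-0.155 to 0.0235). Of 660 list counts under an alternative, 594 lay within 1.5 times the count given and 66 did not, 12 of them with the replicate block.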
